A study of Mus musculus with 8 samples.

Results

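The genes described here encode the MHC class I molecule and the machinery that loads it with peptide. They were the 8 genes H2-K1, H2-D1, B2m, Tap1, Tap2, Tapbp, Erap1 and Nlrc5, found by their symbols among the 22013 genes of the deposited count table, with 1 row for each symbol. The cells were RAW264.7, a mouse macrophage-like line that was made from a virus-induced tumor and is kept as a single cultured line. One group of 4 libraries came from cells given PBS. The other 4 libraries came from cells given recombinant FSTL1 (rFSTL1), a secreted glycoprotein, at 100 ng/mL for 24 h. The labels name no deletion or transgene in either group, and the treatment is the difference they give. The comparison asks whether this protein alters the class I pathway of macrophages at the mRNA level. The labels do not say whether the 4 libraries of a group came from separate cultures, so p-values measure only the spread between these libraries, which may be technical.

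MHC class I displays short peptides from inside the cell to CD8 T cells, and its absence is read by natural killer cells. Each molecule has a polymorphic heavy chain, encoded here by H2-K1 or H2-D1, and the invariant light chain beta-2 microglobulin, encoded by B2m. The proteasome cuts proteins into peptides, the TAP1 and TAP2 transporter moves them into the endoplasmic reticulum, the aminopeptidase ERAP1 trims them and tapasin (Tapbp) holds the empty class I molecule at the transporter. NLRC5 is the transactivator of class I promoters. Macrophages carry this pathway at rest and raise it strongly when exposed to interferon.

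Class I promoters hold binding letters for NF-kappa B, for interferon regulatory factors and for the X and CCAAT boxes through which NLRC5 acts with its partners. The promoters of the chains are shown because these were the genes whose values differed most between the groups. RefSeq (GRCm38.p6) promoter windows were matched for 6 of the 8 genes, and the 200 bases before the annotated start are printed for the heavy chains and the light chain, 5′ to 3′ on the gene's own strand. The windows were chr17:34000348-34000547 on the minus strand for H2-K1, chr17:35262894-35263093 on the plus strand for H2-D1 and chr2:122147487-122147686 on the plus strand for B2m. H2-K1 had 2 annotated starts and the first listed was used. Capitals mark the letters GGGNNTTCC (kappa B), GAANNGAAA or GAAANNGAA (interferon-stimulated response element, strings that can overlap each other), TGACG (core of the X2 box) and CCAAT, searched on both strands. The letters were chosen after the sequences had been read.
H2-K1: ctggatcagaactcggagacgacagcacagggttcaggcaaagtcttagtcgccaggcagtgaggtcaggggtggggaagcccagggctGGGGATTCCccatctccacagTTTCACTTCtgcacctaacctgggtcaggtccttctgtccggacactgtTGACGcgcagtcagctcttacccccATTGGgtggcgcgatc
H2-D1: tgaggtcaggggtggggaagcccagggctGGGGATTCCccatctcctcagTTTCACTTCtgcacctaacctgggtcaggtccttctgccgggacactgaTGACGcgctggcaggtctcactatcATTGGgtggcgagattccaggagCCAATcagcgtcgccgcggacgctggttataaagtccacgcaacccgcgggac
B2m: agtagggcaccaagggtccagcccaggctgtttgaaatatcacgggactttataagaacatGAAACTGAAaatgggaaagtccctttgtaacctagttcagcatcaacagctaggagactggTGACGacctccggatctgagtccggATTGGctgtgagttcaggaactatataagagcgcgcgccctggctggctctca

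The H2-K1 and H2-D1 windows held the kappa B letters, GAANNGAAA, TGACG and CCAAT in the same order, and their longest identical run was 46 bases. The B2m window held GAAANNGAA, TGACG and CCAAT, without a match to GGGNNTTCC, the only kappa B letters searched. Strings with a longer gap between GGG and TTCC were not searched, and the printed B2m window holds such a string on the other strand. The search therefore cannot say that B2m lacks a kappa B site, and the share of promoters given next leaves such strings out. Among 27025 promoters of the same length, 4.05% held the kappa B letters, 5% GAANNGAAA, 5.62% GAAANNGAA, 15.8% TGACG and 30% CCAAT. The kappa B letters, GAANNGAAA, TGACG and CCAAT occurred together in 8 of them (0.0296%), which were H2-K1, H2-D1, H2-Q4, H2-Q7, Gm17750, Inip, Rab11b and Rab28. Of the other windows, Tap1 held TGACG, Tapbp held CCAAT and Erap1 held GAAANNGAA. These are matches of letters in a reference genome, and factor binding was not measured in these libraries.

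The total estimated count was 15183118 to 20234477 per library under PBS and 15062023 to 19260960 under rFSTL1. All 8 genes passed the filter on low counts, as did 10748 genes of the table. The lowest count of any of the 8 genes in a library was 334, for Tap2, and the highest was 13375, for B2m. Levels are given as CPM, counts scaled to a common library total by TMM. Of the macrophage markers, 11 of 12 passed the filter, and their summed level was 5068 to 5229 CPM under PBS and 5197 to 5343 CPM under rFSTL1. Csf1r, Lyz2 and Cd68 were each above 800 CPM in their means, while Adgre1, which encodes F4/80, was at 3.43 CPM under PBS and Mertk had at most 2 counts. Cd3d, Cd3e, Cd3g and Ms4a1 had no count in any library. The summed markers were at most 0.157 CPM for T and NK cells and 0.359 CPM for B cells. Those of dendritic cells were at 2.67 to 3.48 CPM under PBS and at 2.51 to 3.85 CPM under rFSTL1. Of 7 dendritic cell markers, 3 passed the filter. The summed markers of fibroblasts, endothelium and epithelium were at most 1.79 CPM, in rFSTL1 replicate 2. That library held 13 counts of Alb and 4 of Krt18, against at most 1 of Alb and 0 of Krt18 in any other library.

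Per kilobase of the longest GENCODE protein-coding transcript, B2m was the most abundant of the 8 genes under PBS, at 760 ± 24.7 CPM per kb (SD, n = 4). This was 8.25 times the level per kb of H2-D1, the next gene, at 92.1 ± 1.28 CPM per kb (SD, n = 4). Tapbp followed at 78.2 ± 1.71 CPM per kb (SD, n = 4). Erap1, with 27.6 ± 0.837, and H2-K1, with 26.5 ± 1.43 CPM per kb (SD, n = 4), overlapped in their PBS libraries and could not be ordered. The transporter subunits stood lower, with Tap1 at 10.9 ± 0.824 and Tap2 at 6.14 ± 0.538 CPM per kb (SD, n = 4). Nlrc5, at 5.97 ± 0.538 CPM per kb (SD, n = 4), overlapped Tap2. Of the heavy chains, H2-D1 had the higher value per kb, within the limits on alleles and on H2-L given next. The TAP subunits and their transactivator were the scarcest of the set.

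RAW264.7 cells carry the H-2d haplotype of BALB/c mice, while the mouse reference genome is that of C57BL/6J, and the build used for the counts is not given in the sources used here. The effect of these allele differences on the counts of H2-K1 and H2-D1 was not tested. H2-L, another heavy chain gene that was looked for, had no row among the counts. Whether reads from it were counted as H2-D1 was not tested. In the GENCODE transcripts, 0% of the 100-base windows of H2-K1, B2m, Tap1 and Nlrc5 occurred in another gene, against 4.64% for H2-D1, mostly shared with H2-Q1. For windows of 50 bases the share was 8.79% for H2-K1, mostly with H2-D1, and 14.3% for H2-D1. The deposited values of H2-D1 were not whole numbers in all 8 libraries and those of H2-K1 and Erap1 in 7, although no 50-base window of Erap1 occurred in another gene. How the fractions arose was not tested.

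The heavy chain H2-K1 (ENSMUSG00000061232) had the largest difference of the 8 genes, and it did not pass the test. H2-K1 was at 44.9, 44.7, 40.1 and 42.1 CPM in PBS replicates 1 to 4. Under rFSTL1 it was at 44.9, 61.9, 55.7 and 51.3 CPM in replicates 1 to 4. The rFSTL1 replicates 2, 3 and 4 lay above every PBS library, and replicate 1 lay inside the PBS range. The PBS mean was 43 ± 2.32 CPM and the rFSTL1 mean 53.5 ± 7.17 CPM (each SD, n = 4). The log2 fold change was 0.32 (standard error 0.08, 95% interval 0.15 to 0.49), which is 24.6% higher. In edgeR's quasi-likelihood test its p was 0.0993 after Benjamini-Hochberg adjustment over all genes, and the two-sided exact permutation p was 0.0571. In bulk RNA, a difference in the number of cells with the transcript and one in transcript per cell cannot be told apart.

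The second heavy chain, H2-D1 (ENSMUSG00000073411), was tightly spaced under PBS, at 194, 193, 191 and 197 CPM in replicates 1 to 4. Under rFSTL1 it was at 197, 224, 216 and 225 CPM. All rFSTL1 libraries lay above all PBS libraries, but replicate 1 only just, at 197.3 CPM against 197.2 CPM in PBS replicate 4. The PBS mean was 194 ± 2.69 CPM and the rFSTL1 mean 216 ± 12.7 CPM (each SD, n = 4). The log2 fold change was 0.16 (standard error 0.05, 95% interval 0.06 to 0.25), or 11.4% higher, with a Benjamini-Hochberg adjusted p of 0.146 in edgeR. The exact permutation p was 0.0286, the smallest that 4 against 4 libraries allow.

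B2m (ENSMUSG00000060802), which encodes the light chain of the class I molecule, was at 674.9, 653.5, 660 and 624.3 CPM in PBS replicates 1 to 4. Under rFSTL1 it was at 701.5, 798.5, 697.7 and 673.7 CPM. Replicates 1, 2 and 3 lay above every PBS library, and replicate 4 lay just under PBS replicate 1. The PBS mean was 653 ± 21.2 CPM and the rFSTL1 mean 718 ± 55.2 CPM (each SD, n = 4). The log2 fold change was 0.14 (standard error 0.05, 95% interval 0.03 to 0.24), or 9.88% higher, with a Benjamini-Hochberg adjusted p of 0.224 in edgeR. The exact permutation p was 0.0571.

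**Figure D1:**
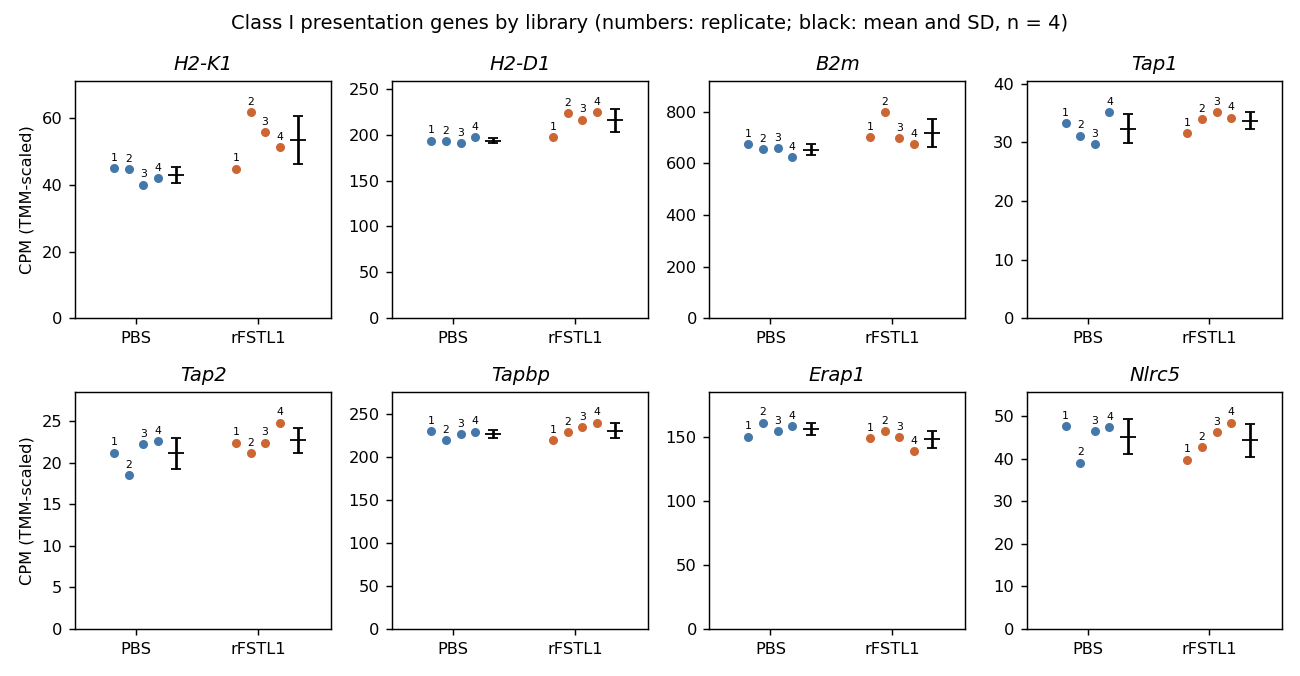
Level of each class I presentation gene in each library, in TMM-scaled CPM from 0, with PBS in blue and rFSTL1 in orange, replicate numbers above the points, and the mean and SD (n = 4) in black. H2-K1 reached 51.3 to 61.9 CPM in rFSTL1 replicates 2 to 4 against at most 44.9 CPM under PBS, while Tap1, Tap2, Tapbp and Nlrc5 covered similar ranges in both groups.

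The TAP1 and TAP2 proteins form the transporter as a pair. Tap1 (ENSMUSG00000037321) was at 33.3, 31.1, 29.6 and 35.2 CPM in the PBS libraries and at 31.6, 33.9, 35.1 and 34.2 CPM in the rFSTL1 libraries, so every rFSTL1 value lay inside the PBS range. Its log2 fold change was 0.07 (standard error 0.07, 95% interval -0.07 to 0.21), with a Benjamini-Hochberg adjusted p of 0.653 in edgeR. The value of Tap1 was 0.02 without PBS replicate 3 and 0.10 without PBS replicate 4. Tap2 (ENSMUSG00000024339) was at 21.2, 18.5, 22.2 and 22.6 CPM under PBS and at 22.4, 21.1, 22.4 and 24.8 CPM under rFSTL1. Only rFSTL1 replicate 4 lay above the PBS range. The log2 fold change of Tap2 was 0.10 (standard error 0.08, 95% interval -0.07 to 0.28), with a Benjamini-Hochberg adjusted p of 0.547 in edgeR. This value was 0.05 without PBS replicate 2 and 0.06 without rFSTL1 replicate 4.

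Tapbp (ENSMUSG00000024308), which encodes tapasin, was at 230.3, 219.5, 227.1 and 229.8 CPM under PBS and at 219.5, 228.8, 235 and 240.1 CPM under rFSTL1. The groups overlapped, with replicates 3 and 4 above the PBS range. Its log2 fold change was 0.03 (standard error 0.04, 95% interval -0.06 to 0.11), with a Benjamini-Hochberg adjusted p of 0.781 in edgeR, and it was 0.0078 without rFSTL1 replicate 4 and 0.04 without rFSTL1 replicate 1. Erap1 (ENSMUSG00000021583), the peptide-trimming enzyme, was at 150, 161, 155 and 158 CPM under PBS and at 149, 155, 149 and 139 CPM under rFSTL1. It was the gene of the 8 with the largest negative value, a log2 fold change of -0.08 (standard error 0.04, 95% interval -0.17 to 0.02), and 3 of 4 rFSTL1 libraries lay below the PBS range. Without rFSTL1 replicate 4 the value of Erap1 was -0.05, and without rFSTL1 replicate 2 it was -0.11. Its Benjamini-Hochberg adjusted p in edgeR was 0.415 and its exact permutation p was 0.0857.

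Nlrc5 (ENSMUSG00000074151), the class I transactivator, was at 47.7, 39.1, 46.6 and 47.4 CPM under PBS. It was at 39.8, 42.7, 46.3 and 48.5 CPM under rFSTL1. The groups overlapped over nearly their whole range, and the log2 fold change was -0.02 (standard error 0.07, 95% interval -0.18 to 0.14). Its Benjamini-Hochberg adjusted p in edgeR was 0.904.

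Over the 8 genes, 0 had an adjusted p under 0.05 in the edgeR test, where 0.344% of all 10748 genes did (37 genes, 0.326% higher and 0.0186% lower). DESeq2 called 1 of them, H2-K1, where it called 2.49% of the 7830 genes to which it gave an adjusted p. Quality-weighted limma voom called 2, H2-K1 and H2-D1, and 4.22% of all genes. At an unadjusted p under 0.05 there were 3 of 8, H2-K1, H2-D1 and B2m, all higher under rFSTL1, against 8.29% of all genes higher and 7.56% lower at that level. The groups did not overlap for 1 of the 8 genes, H2-D1, against 8.16% of all genes (4.63% with rFSTL1 above and 3.53% below). The median log2 fold change was 0.09 over the 8 genes and 0.0058 over all genes tested. The median over the 8 genes was 0.05 without PBS replicate 2 and 0.015 with a correction for transcript length and GC content.

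**Figure D2:**
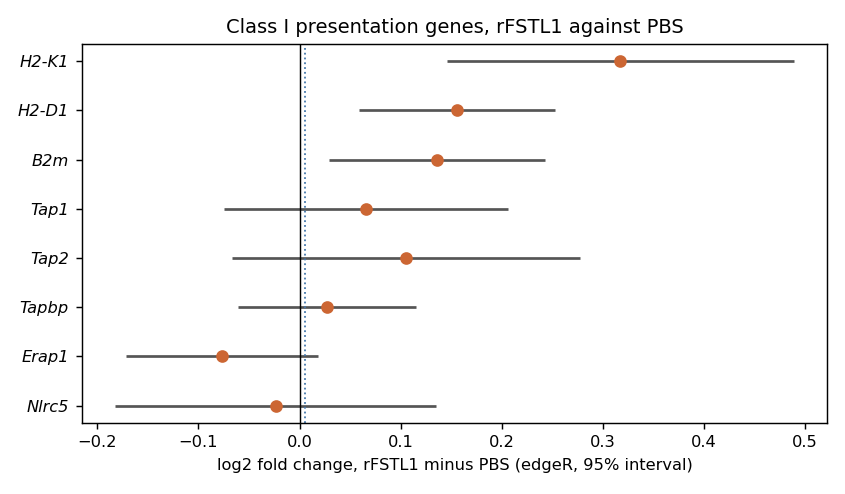
Log2 fold change of each class I presentation gene (point, rFSTL1 minus PBS) with its 95% interval from edgeR (line), the solid line at 0 and the dotted line at the median of all genes tested, 0.0058. The intervals of H2-K1, H2-D1 and B2m lie above 0 before adjustment and those of the other 5 genes span it.

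The size of these differences rested partly on single libraries. Over all genes the rFSTL1 libraries stood farther apart than the PBS libraries, at 4.52 to 19.1 for a pair (highest for replicates 2 and 4) against 3.03 to 4.21, in chi-square of their counts divided by its degrees of freedom. rFSTL1 replicate 2 held the highest value of H2-K1 and of B2m, and without it the log2 fold change was 0.23 for H2-K1 and 0.07 for B2m. It was also the library with the highest summed level of 20 interferon response genes outside the class I pathway, at 452 CPM, against 315 to 344 CPM in the PBS libraries and 316 to 366 CPM in the other rFSTL1 libraries. Without rFSTL1 replicate 1, where H2-K1 and H2-D1 were near the PBS values, the edgeR test with Benjamini-Hochberg adjustment called both and 0.914% of all genes, at 0.38 (adjusted p = 0.0371) and 0.19 (adjusted p = 0.0468). The part of the interferon response genes in the class I values was not tested.

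A correction for the trend of counts with GC content and transcript length in each library, added after seeing the data, moved the members unequally. The log2 fold change of H2-K1 became 0.25 and that of H2-D1 0.08, that of Tap2 was 0.02 and B2m had 0.13. Under this correction the values of Tap1 and Tapbp turned to -0.0020 and -0.055 and that of Erap1 to 0.0062, none of them called.

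**Figure D3:**
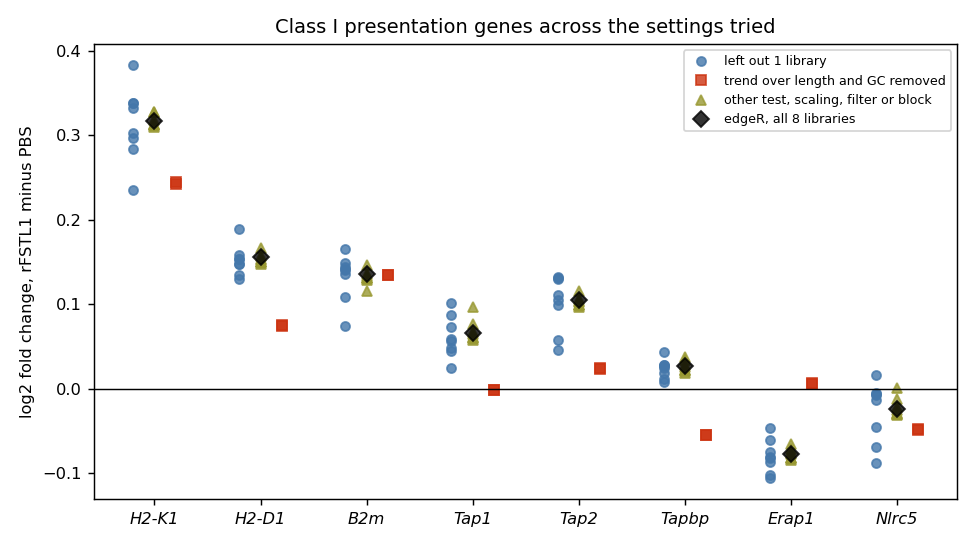
Log2 fold change (rFSTL1 minus PBS) of each class I presentation gene under every setting tried: edgeR on all 8 libraries (diamond), without 1 library (circles), with the length and GC trend removed (squares) and with another test, scaling, filter or replicate block (triangles). H2-K1, H2-D1, B2m and Tap2 stayed above 0 in all of them, and the values of Tap1, Tapbp, Erap1 and Nlrc5 crossed 0 in some.

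Ratios within a library do not depend on how libraries were scaled. The ratio of H2-K1 to B2m counts was 0.0666, 0.0684, 0.0607 and 0.0675 under PBS and 0.064, 0.0775, 0.0799 and 0.0762 under rFSTL1. It was above the PBS range in 3 of 4 rFSTL1 libraries and inside it in replicate 1 (difference of the log2 ratio 0.17, exact permutation p = 0.114, adjusted p over the 6 ratios tested 0.429). The ratio of H2-D1 to B2m differed by 0.02 on the log2 scale (exact permutation p = 0.8), and the groups overlapped. The ratio of Tap1 to Tap2 was 1.33 to 1.68 under PBS and 1.38 to 1.6 under rFSTL1, with a difference of -0.04 on the log2 scale (exact permutation p = 0.714).

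The proteasome feeds this pathway, and interferon replaces its constitutive catalytic subunits by immunoproteasome subunits. The 5 genes of the immunoproteasome and its PA28 activator had 0 calls in either direction, a median log2 fold change of 0.06 and a range of -0.04 for Psmb9 to 0.16 for Psmb10. This median was 0.04 without rFSTL1 replicate 2, 0.02 without rFSTL1 replicate 3, 0.11 without rFSTL1 replicate 1 and -0.02 with the length and GC trend removed. The 3 constitutive catalytic subunits also had 0 calls, but all were higher at an unadjusted p under 0.05, against 8.29% of all genes, with log2 fold changes of 0.13 for Psmb5, 0.19 for Psmb6 and 0.10 for Psmb7. Psmb6 was at 151 to 162 CPM under PBS and at 167 to 192 CPM under rFSTL1, without overlap (Benjamini-Hochberg adjusted p = 0.0993 in edgeR), and it was called by DESeq2 and voom. With the length and GC trend removed, 0.689% of all genes were called and Psmb7 was among them, at 0.17 (Benjamini-Hochberg adjusted p = 0.0221 in edgeR). The log2 ratio of each inducible subunit to the constitutive subunit it replaces differed by -0.07 for Psmb8 over Psmb5, by -0.23 for Psmb9 over Psmb6 and by 0.06 for Psmb10 over Psmb7. The exact permutation p was 0.371, 0.143 and 0.229, and the adjusted p over the 6 ratios was 0.429 or more. Leaving out 1 library moved the first to between -0.14 (without rFSTL1 replicate 3) and -0.02 (without rFSTL1 replicate 1). It moved the second to between -0.30 (without PBS replicate 2) and -0.13 (without PBS replicate 4), and the third to between 0.03 (without rFSTL1 replicate 3) and 0.10 (without PBS replicate 2). Of these genes, 44.5% of the 100-base windows of Psme2 and 24.9% of those of Psmb5 occur in another gene's transcripts.

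Of 30 other class I and class I-like chains that were listed, 11 passed the filter and 0 were called, with 10 positive and 1 negative log2 fold changes and a median of 0.16 (0.10 without rFSTL1 replicate 2). The most abundant were H2-T24, H2-M3 and H2-T23, with 0.16, 0.07 and 0.10. The value of H2-T24 was 0.0049 without rFSTL1 replicate 2, where it was at 94.3 CPM against 57.1 to 71.5 CPM in the other rFSTL1 libraries, and that of H2-T23 was 0.06. H2-T23 encodes Qa-1, a ligand of an inhibitory receptor of natural killer cells. The largest values were 0.55 for both H2-Q1 and H2-Q7, which were at or under 2.63 CPM in their means. Without rFSTL1 replicate 2 H2-Q1 had 0.26, and without PBS replicate 1 H2-Q7 had 0.31. H2-Q6 was at 18.1 to 22.6 CPM under PBS and at 23.3 to 24.8 CPM under rFSTL1, without overlap (log2 fold change 0.23, Benjamini-Hochberg adjusted p = 0.177 in edgeR). Mr1, which presents microbial vitamin metabolites, had the negative value, -0.40 (standard error 0.14, Benjamini-Hochberg adjusted p = 0.211 in edgeR). H2-Q1, H2-Q4, H2-Q6, H2-Q7, H2-T22 and H2-T23 share between 2.66% and 16.4% of their 100-base windows, and between 22.9% and 44.7% of their 50-base windows, with other genes, so their counts are uncertain by an amount that was not measured.

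**Figure D4:**
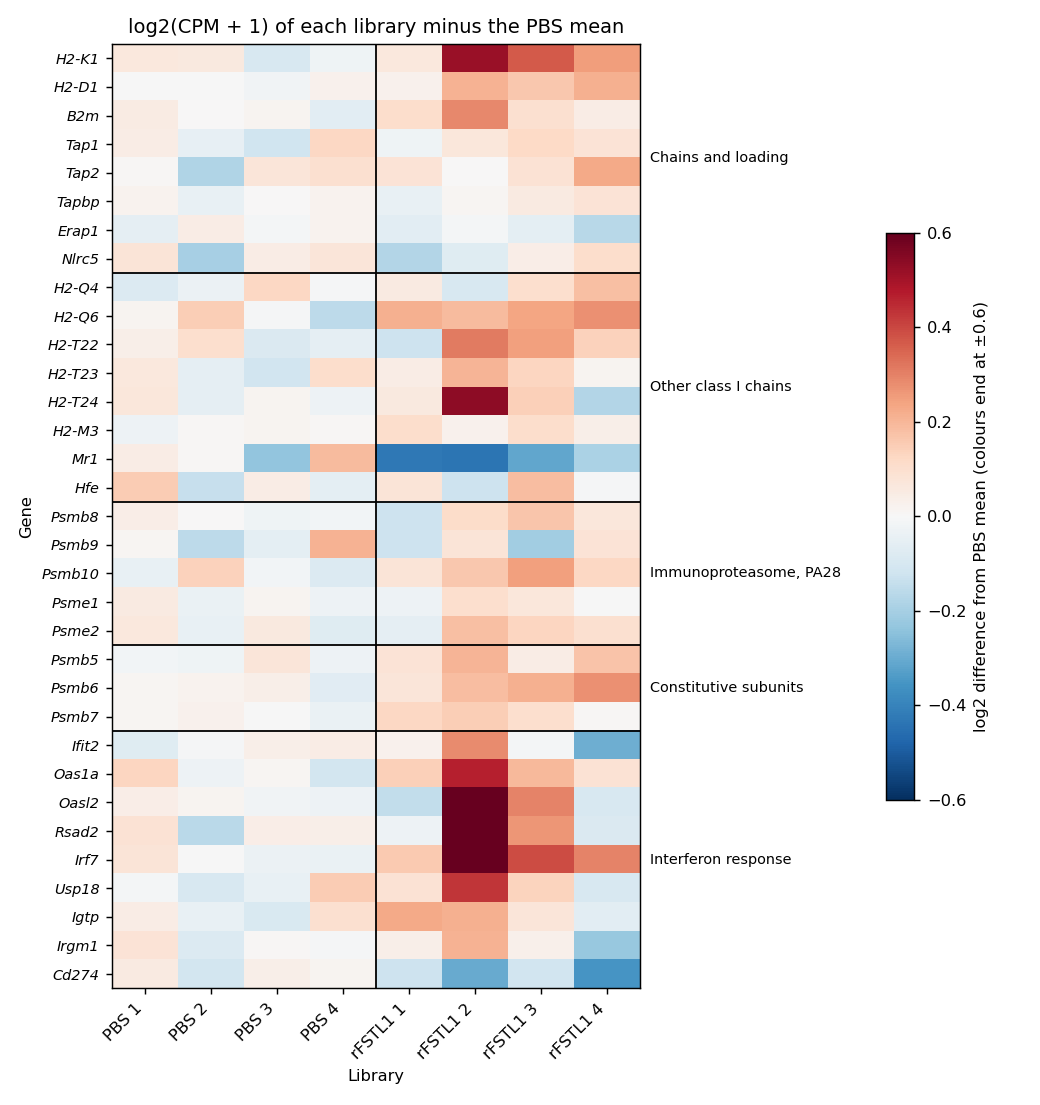
Difference of each library's log2(CPM + 1) from the PBS mean for 33 tested genes with a mean of at least 5 CPM, in columns by library and rows by gene list, red for higher and blue for lower with colours ending at 0.6, which 3 values pass. The rFSTL1 replicate 2 column holds the darkest red for H2-K1, H2-T24, Oasl2, Rsad2 and Irf7, and Mr1 is blue in all 4 rFSTL1 columns.

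The 14 folding and loading factors of the endoplasmic reticulum had 0 calls and a median log2 fold change near 0, at 0.01. The chaperones Calr, Canx and Hspa5, each above 1000 CPM, had values of 0.06, -0.09 and 0.08. When 1 library was left out, Calr ran from 0.03 to 0.08, Canx from -0.13 to -0.05 and Hspa5 from 0.04 to 0.11. The largest in the list were 0.27 for Sec61g, a small subunit of the translocon, and -0.17 for Lnpep, the endosomal aminopeptidase IRAP (-0.10 without rFSTL1 replicate 4). The 6 cytosolic peptidases had 0 calls, from -0.13 for Tpp2 to 0.14 for Thop1 (0.05 without rFSTL1 replicate 4).

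Among 16 transcription factors that act on class I promoters, 0 were called and the median log2 fold change was near 0, at 0.02. This median and that of the folding factors turned sign when 1 library was left out, at -0.0037 without rFSTL1 replicate 2 and at -0.00024 without PBS replicate 3. Irf8, a myeloid interferon regulatory factor, was the highest at 0.23 (standard error 0.06, Benjamini-Hochberg adjusted p = 0.0951 in edgeR). It was at 48.6 to 57.3 CPM under PBS and at 59.1 to 66.4 CPM under rFSTL1, without overlap. The NLRC5 partners Rfx5, Rfxap and Rfxank had values of -0.12, 0.03 and 0.21. Rfxap had -0.01 without PBS replicate 3 and Rfxank 0.10 without rFSTL1 replicate 4. The values of Irf1 and Rela were -0.0041 and 0.08. Irf1 had -0.07 without rFSTL1 replicate 2 and 0.03 without rFSTL1 replicate 1, and Rela had 0.05 without PBS replicate 1. For the interferons themselves, Ifng, Ifnl2 and Ifnl3 had no count in any library, which allows up to 0.148 to 0.2 CPM per library (3 counts, counting error only), and Ifnb1 had 1 count in 1 PBS library. Of the 8 tested genes of interferon receptors and signalling 0 were called, and Jak2 had the largest value, -0.21 (Benjamini-Hochberg adjusted p = 0.19 in edgeR).

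Interferon response genes outside the class I pathway (18 tested) had 0 calls, 13 positive and 5 negative log2 fold changes and a median of 0.13. This median rested on single libraries, at 0.03 without rFSTL1 replicate 2, 0.06 without PBS replicate 2, 0.08 without rFSTL1 replicate 1 and 0.25 without rFSTL1 replicate 4. Irf7, a regulator of type I interferon production, was at 28.6 to 31.2 CPM under PBS and at 33, 51.3, 39 and 36.5 CPM in rFSTL1 replicates 1 to 4. The groups did not overlap, and its log2 fold change was 0.44 (standard error 0.10, Benjamini-Hochberg adjusted p = 0.0789 in edgeR). The most abundant genes of this list, Oas1a, Usp18 and Irgm1, had values of 0.23, 0.15 and 0.02. Without rFSTL1 replicate 2 these were 0.13, 0.04 and -0.06, and that of Irf7 was 0.29. Ifit3, at a mean of 3.22 CPM under PBS, had a log2 fold change of 0.41, and of 0.14 without rFSTL1 replicate 2. Cd274, which encodes the checkpoint ligand PD-L1, had -0.25 and lay below the PBS range in all 4 rFSTL1 libraries (Benjamini-Hochberg adjusted p = 0.294 in edgeR).

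The class II pathway lets macrophages present engulfed antigen to CD4 T cells. No library held more than 7 counts of H2-Aa, H2-Ab1 or H2-Eb1, nor more than 5 of Ciita, the class II transactivator, so they were not tested. Cd74, the invariant chain, was at 70.7 to 85.3 CPM under PBS and at 83.3 to 95.9 CPM under rFSTL1. The log2 fold change of Cd74 was 0.26 (standard error 0.06, Benjamini-Hochberg adjusted p = 0.0763 in edgeR). Of 5 class II pathway genes tested, 3 values were positive and 2 negative, and 0 were called. H2-Oa had the largest, 0.595, but was at means of only 0.50 CPM under PBS and 0.79 CPM under rFSTL1. Its value ran from 0.27 to 0.92 when 1 library was left out. Ctss and Ifi30, lysosomal enzymes of antigen processing, had values of -0.01 and 0.11. That of Ctss was -0.05 without rFSTL1 replicate 2 and 0.03 without rFSTL1 replicate 4. The ligands of the activating receptor NKG2D were present, with Ulbp1, Raet1d and Raet1e at means of 99.4, 71 and 45.4 CPM under PBS. Their log2 fold changes were -0.14, -0.08 and 0.14, and 0 of 5 tested were called. That of Raet1d ran from -0.13 to -0.04 when 1 library was left out. The largest values of the list were 0.28 for H60c and -0.23 for H60b, at means of 0.689 and 2.67 CPM under PBS. Without rFSTL1 replicate 2 they were -0.08 and -0.56. Without rFSTL1 replicate 2, where Raet1e was at 65.3 CPM, its value was -0.02.

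Over all these lists beside the chains and loading genes, 91 genes were tested and 0 were called by edgeR, with 18 at an unadjusted p under 0.05 (12 higher and 6 lower) against 15.9% of all genes. DESeq2 called 4 of them, Psmb6, Cd74, Irf7 and Irf8, and limma voom with sample quality weights called 6, those 4 with Sec61g higher and Jak2 lower, beside the shares of 2.49% and 4.22% over all genes in these fits.

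The profile over the 8 libraries, scaled to mean 0 and SD 1, was compared between genes by its root mean square difference, for which the median over all 8522 genes with at least 10 CPM was 1.3 to 1.35. The profiles nearest to H2-K1 were those of Cuta (0.192), Rps12 (0.194) and Rps19 (0.228), the last pair being ribosomal protein genes. Nearest to B2m were Oas1a (0.16), Helb (0.19) and Max (0.192). Nearest to Tap1 were Ing4 (0.292), Eif2b4 (0.312) and Ppdpf (0.355), and nearest to Nlrc5 were Dock6 (0.259), Stimate (0.31) and Ccdc88c (0.329). Among the 8 genes, the nearest profiles were those of H2-K1 and H2-D1 (0.426), then Tapbp and Nlrc5 (0.507) and H2-K1 and B2m (0.561). The farthest were Tap2 and Erap1 (1.76).

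In the GRCm38.p6 gene order, Psmb9, Tap1, Psmb8 and Tap2 are neighbours on chromosome 17, the chromosome that also holds H2-K1, H2-D1 and Tapbp. The log2 fold changes of these 4 neighbours were -0.04, 0.07, 0.06 and 0.10, and 0 were called. When 1 library was left out, Psmb9 ran from -0.10 to 0.03 and Psmb8 from 0.02 to 0.11. Of the Tap1 exon bases in GENCODE, 3.87% overlap Psmb9 on the other strand. The other genes with exon overlap were Tapbp (24.9% with Gm19412 on the other strand and 4.11% with Zbtb22 on the same strand), Tap2 (14.1% with Gm15821 and 4.36% with Gm20496), Erap1 (11.5% with Cast) and Nlrc5 (0.918% with 9330175E14Rik). No source used here says that strand was kept, so reads from such partners cannot be told apart.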

How the data were processed

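RNA-seq of 8 RAW264.7 libraries, 4 under PBS and 4 under rFSTL1, was analysed by the treatment given in the labels. The authors deposited expected counts (estimated counts) per Ensembl gene without normalization. The submitters' processing notes name Bowtie2 2.2.8, HISAT2, StringTie 1.3.1 and DESeq2, and the genome build is not given in the sources used here. Of the nonzero values, 13% were not whole, and all were rounded. The design had assumed whole counts, and the same tests were kept.

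Genes were filtered with filterByExpr (minimum count 10), scaled by TMM and tested with edgeR 4.0.16 (glmQLFit, glmQLFTest) in R 4.3.3. P-values were adjusted over all 10748 genes by Benjamini-Hochberg, at a threshold of 0.05. Intervals are 95%. Exact two-sided permutation tests used log2(CPM + 1) or log2 ratios over 70 assignments. Fits were tested on simulated data. The alternatives were DESeq2 1.42.0, limma 3.58.1 voom with quality weights, other scalings and filters, a replicate block, leaving out each library and, added after seeing the data, a correction for trends with length and GC (splines with 4 degrees of freedom, values for 99.7% of genes).

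The genes and lists were chosen with earlier results of these data known. The rule names the 8 genes. From each list it allows the called genes, the 3 most abundant and the 2 with the largest log2 fold change. Defining genes at or near 0 are allowed as well, and not all genes allowed were named. The rule also names the 3 nearest profiles of H2-K1, B2m, Tap1 and Nlrc5. Outside it, H2-Q4, H2-Q6, H2-T22, Mr1, Psmb9, Rfx5, Rfxap, Irf1, Rela, Oasl2, Rsad2, Cd274, Adgre1, Alb and Krt18 were named after their values were seen.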

Additional observations from a re-analysis of the deposited data

Results flagged for a closer look

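Nlrc5 had 39.1 CPM in PBS replicate 2, while PBS replicates 1, 3 and 4 had 46.6 to 47.7 CPM, so that 1 library stood apart by 0.872 of the group's range. Of 28 groups of 4 libraries examined for such a value, 1 was found, and chance would give about 1.4.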

How the results depend on the processing

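For the 8 genes, the count of 0 became 1 by DESeq2, 2 by limma voom, 1 on all genes with at least 1 count, 1 at a threshold of 0.1 and 0 to 2 without 1 library (2 without rFSTL1 replicate 1). H2-K1 passed at 0.31 by DESeq2, 0.33 by voom and 0.31 on all genes with a count, and was 0.23 to 0.38 without 1 library. H2-D1 passed at 0.15 by voom and was 0.13 to 0.19 without 1 library. Nlrc5 reversed at 0.00043 by voom and was -0.088 to 0.016 without 1 library. With the length and GC trend removed, Tap1 reversed to -0.0020, Tapbp to -0.055 and Erap1 to 0.0062, and with the trend and the replicate block together to -0.0015, -0.0552 and 0.0058. Over the pathway lists, the count of 0 became 4 by DESeq2, 6 by voom and 2 on all genes with a count. It became 1 with the trend removed, 1 with the block as well, and 0 to 3 without 1 library. At a threshold of 0.1, Cd74, Irf7, Irf8 and Psmb6 passed in the main edgeR fit. Over all genes, 37 became 195 by DESeq2 (128 higher, 67 lower), 454 by voom (244 higher, 210 lower), 56 by upper-quartile scaling, 127 on all genes with a count, 133 at a threshold of 0.1, 74 with the trend removed, 71 with the block as well, and 11 to 99 without 1 library. For these counts the cause was not tested.

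The log2 ratio of H2-K1 to B2m differed by 0.14 to 0.24 without 1 library with the highest (unadjusted exact permutation p = 0.0286, the smallest that 3 against 4 allow) without rFSTL1 replicate 1, and the adjusted p of that value was not computed. The difference was -0.031 to 0.053 for H2-D1 over B2m, reversing without rFSTL1 replicate 4, and -0.11 to 0.0045 for Tap1 over Tap2, reversing without PBS replicate 2. The labels do not say whether libraries are paired by their replicate numbers. Same-numbered ones correlated at -0.09, 0.085, -0.013 and 0.00098. These values show no shared effect of the replicate number and cannot settle whether the libraries were paired. With the replicate block, edgeR called 41 genes and 0 of the 8, H2-K1 had 0.31, and the ratio of H2-K1 to B2m kept its 0.17 (exact sign-flip permutation p = 0.25, where 4 pairs cannot pass 0.05).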
